A study of Mus musculus with 79 samples.

Results

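A set of 10 genes of the blood vessel wall was followed across the brain of APP/PS1 mice: Vwf, Cldn5, Pecam1, Cdh5, Tek, Kdr and Esam of endothelial cells, and Acta2, Tagln and Pdgfrb of mural cells. They were taken as a list of vessel genes around Vwf, and the question was whether Vwf changed alone or together with the rest of the vessel wall. Of these 10 genes, 9 had a probe in the signal table by the platform annotation, with 13 probes of the 25697 in the table, and these are 9 of the 12739 genes named there. Cldn5, a tight junction protein of brain endothelium, had 0 named probes and was not analysed here. Kdr, the main receptor for vascular endothelial growth factor, was detected on 1 array of each tissue and was not tested. The other 8 genes, with 12 probes, were tested in both tissues.

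Endothelial cells line every vessel of the brain and, sealed by tight junctions, form the blood-brain barrier. Pericytes lie on capillaries, while smooth muscle cells wrap arteries and arterioles. Von Willebrand factor, the product of Vwf, is a large glycoprotein that endothelial cells store in Weibel-Palade bodies and release into blood, where it tethers platelets and carries clotting factor VIII. Its mRNA differs widely between endothelial cells of different vessels and is more abundant in veins and larger vessels than in most capillaries.

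Bead arrays measured total RNA of the left hippocampus and left frontal cortex of female mice in 4 groups. APP/PS1 mice, a double transgenic line that forms amyloid plaques, received either an antisense oligonucleotide (ASO) against Cd33, a control ASO without that target, or phosphate-buffered saline (PBS), and wild-type littermates received PBS. A pump delivered 75 µg of ASO per day at 6 µL per day into the right lateral ventricle for 14 days from 18 weeks of age, and most animals were collected 17 days after surgery at about 20.5 weeks. Of 40 animals, 39 gave both tissues: the CD33 ASO group has 9 hippocampal and 10 cortical arrays, while the control ASO, APP/PS1 PBS and wild-type groups have 11, 8 and 11 in each tissue. Of these, 4 animals, 3 with CD33 ASO and 1 APP/PS1 mouse with PBS, were collected 13 to 16 days after surgery. All groups carried a pump and cannula, and no wild-type mouse received an ASO. The transgenes of this line are driven by the neuronal Thy1 promoter, which is not active in the vessel wall.

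Between 13105 and 14446 probes were detected per array. The summed level of 5 hippocampal marker genes was between 12007 and 15932 on hippocampal arrays and between 1339 and 2299 on cortical arrays, so the tissue labels held for each group. Cd33 was lower with CD33 ASO than with control ASO by limma, by -1.71 log2 units in hippocampal tissue (adjusted p = 1.08e-15), and by -1.27 in cortical tissue (adjusted p = 7.24e-08). Only 2 of the 9 CD33 ASO arrays from hippocampus and 8 of the 10 from cortex detected it, so the size of the hippocampal difference is limited by the floor of the signal. Thy1 did not match the genotype label in 4 animals, 2 labelled control ASO and 2 labelled CD33 ASO. Their 7 arrays had log2 signals between 13.81 and 14.01, below the highest wild-type values of 14.03 in the hippocampus and 14.14 in the cortex, while the other APP/PS1 arrays started at 14.51 and 14.54. Of these 4 animals, 2 were also among those collected on another day. Cst7, which was higher in APP/PS1 mice, was at 5.72 or more on every hippocampal APP/PS1 array, above the wild-type maximum of 4.72. In the cortex it was detected on 9 of 11 control ASO arrays and on 0 of 11 wild-type arrays. The Vwf difference between the oligonucleotides is given with and without the 4 animals.

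Vwf was lower in animals infused with CD33 ASO than in those infused with control ASO in both tissues. Vwf (gene ID 22371) lies on chromosome 6 at 125552948 to 125686679 in GRCm38.p6, and its single probe was detected on all 39 hippocampal and all 40 cortical arrays. All Vwf values below are normalized log2 signals. In the hippocampus with CD33 ASO, Vwf ran from 7.30 to 9.37 with a median of 8.52, and its mean was 8.41 ± 0.63 (SD, n = 9). With control ASO it ran from 8.72 to 9.78 with a median of 9.40, and its mean was 9.30 ± 0.39 (SD, n = 11). The groups overlapped, but 6 of 9 CD33 ASO arrays lay below every control ASO array, and 9 of 9 lay below the control ASO median.

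The hippocampal difference was -0.90 (SE 0.219, 95% confidence interval -1.34 to -0.46), or 0.537 times the control ASO level. It passed limma's test after Benjamini-Hochberg adjustment over all 14923 probes (adjusted p = 0.0141), in a comparison in which 3.53% of all probes were called in either direction and 1.73% were called lower. The exact two-sided permutation test of Vwf alone gave p = 0.00118 (0.00354 adjusted over the 8 comparisons of Vwf). It uses the same values as limma and does not allow for the choice of Vwf with earlier results of these data known. On the slides that held both groups, Vwf was lower on 3 of 3, by values between -1.40 and -0.16. Some of these slides held only a single CD33 ASO array. The call was lost with slide as a block (-0.70, adjusted p = 0.22, a fit in which 0.757% of all probes were called) and without the 4 animals with low Thy1 (-0.85, adjusted p = 0.0526).

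In the frontal cortex with CD33 ASO, Vwf ran from 8.75 to 9.34 with a median of 8.89, and its mean was 8.96 ± 0.21 (SD, n = 10). With control ASO it ran from 9.27 to 9.86 with a median of 9.46 and a mean of 9.53 ± 0.21 (SD, n = 11). Only the highest CD33 ASO array reached into the control ASO range, and 9 of 10 lay below every control ASO array. The difference was -0.57 (SE 0.105, interval -0.78 to -0.36), or 0.674 times the control ASO level. Limma called it with an adjusted p of 0.00201, where 0.322% of 14581 probes were called and 0.137% were called lower. The permutation test gave p = 2e-05, the smallest value its 100000 resamples allow, with the same limit as in the hippocampus. Vwf was lower on 4 of 4 slides with both groups, between -0.83 and -0.42, but each of these slides held only a single array of either group. The call held without the animals with low Thy1 (-0.60, adjusted p = 0.00989).

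**Figure D1:**
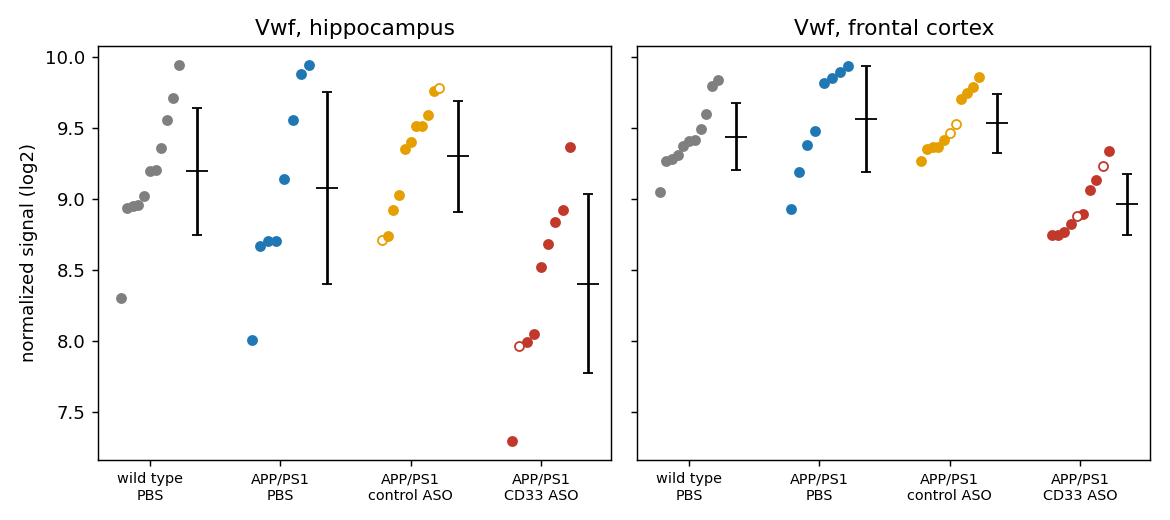
Normalized log2 signal of Vwf on each array, by group, in hippocampus (left) and frontal cortex (right); black bars give the mean and SD of each group, and open circles mark the animals with low Thy1. In the cortex 9 of 10 CD33 ASO arrays lie below every control ASO array, and in the hippocampus 6 of 9 do.

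Against PBS, the animals with CD33 ASO also had less Vwf mRNA in the cortex. Cortical Vwf with PBS in APP/PS1 mice ran from 8.93 to 9.94 with a median of 9.65, and its mean was 9.56 ± 0.37 (SD, n = 8). All 10 CD33 ASO arrays lay below that median and 6 of 10 below every PBS array. The difference was -0.60 (SE 0.114, interval -0.83 to -0.37, limma adjusted p = 0.00167), where 1.49% of all probes were called and 0.802% were called lower. Without the animals with low Thy1 it was -0.62 (adjusted p = 0.0021). This comparison shares its CD33 ASO arrays with the comparison against control ASO.

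In the hippocampus the groups with CD33 ASO and PBS overlapped over most of their range. Hippocampal Vwf with PBS ran from 8.01 to 9.95 with a median of 8.93, and its mean was 9.08 ± 0.68 (SD, n = 8). Of the 9 CD33 ASO arrays, 3 lay below every PBS array and 8 below the PBS median. Vwf was lower on 3 of 4 slides with both groups, with differences between -1.83 and 0.21. The difference of -0.67 (interval -1.15 to -0.20) missed the threshold by limma (adjusted p = 0.0967), and 4.96% of all probes were called in that comparison. It passed in some alternatives, among them without the 4 animals collected on another day (-0.84, adjusted p = 0.0403).

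Neither the control ASO nor the genotype gave a called difference in Vwf. Control ASO minus PBS was 0.22 in the hippocampus (interval -0.23 to 0.68, limma adjusted p = 0.553), where 11.4% of all probes were called, and -0.03 in the cortex (interval -0.25 to 0.20, adjusted p = 0.973), where 0.926% were called. Wild-type Vwf was 9.20 ± 0.45 (SD, n = 11) in the hippocampus and 9.44 ± 0.23 (SD, n = 11) in the cortex, and in both tissues every wild-type array lay within the range of the APP/PS1 PBS arrays. APP/PS1 minus wild type with PBS was -0.12 (interval -0.57 to 0.34, adjusted p = 0.944) in the hippocampus, where 0.952% of all probes were called. It was 0.12 (interval -0.10 to 0.35, adjusted p = 0.665) in the cortex, where 4.18% were called. RNA of whole tissue cannot tell fewer cells of a type from less RNA per cell, for Vwf and for every gene below.

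None of the other 7 tested genes was called in any of the 8 comparisons by limma, against the shares of all probes given above. For CD33 ASO against control ASO, 0 of their 11 probes had an unadjusted p under 0.05 in either tissue. Their differences lay between -0.16 and 0.20 in the hippocampus, with 5 higher and 6 lower, and between -0.16 and 0.13 in the cortex, again with 5 higher and 6 lower. The 95% interval of each of the 11 probes left out the difference measured for Vwf, in both tissues and in the cortical comparison with PBS. That takes the Vwf difference as exact. In the hippocampus the interval of Vwf, -1.34 to -0.46, overlapped those of some Acta2 probes, which reached down to -0.79. Cdh5, Tagln and the second Pecam1 probe lay near the detection limit, where such a fall could hardly be seen. The median over the 8 tested genes was -0.04 in the hippocampus and -0.01 in the cortex, beside -0.01 and 0.01 over all genes.

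**Figure D2:**
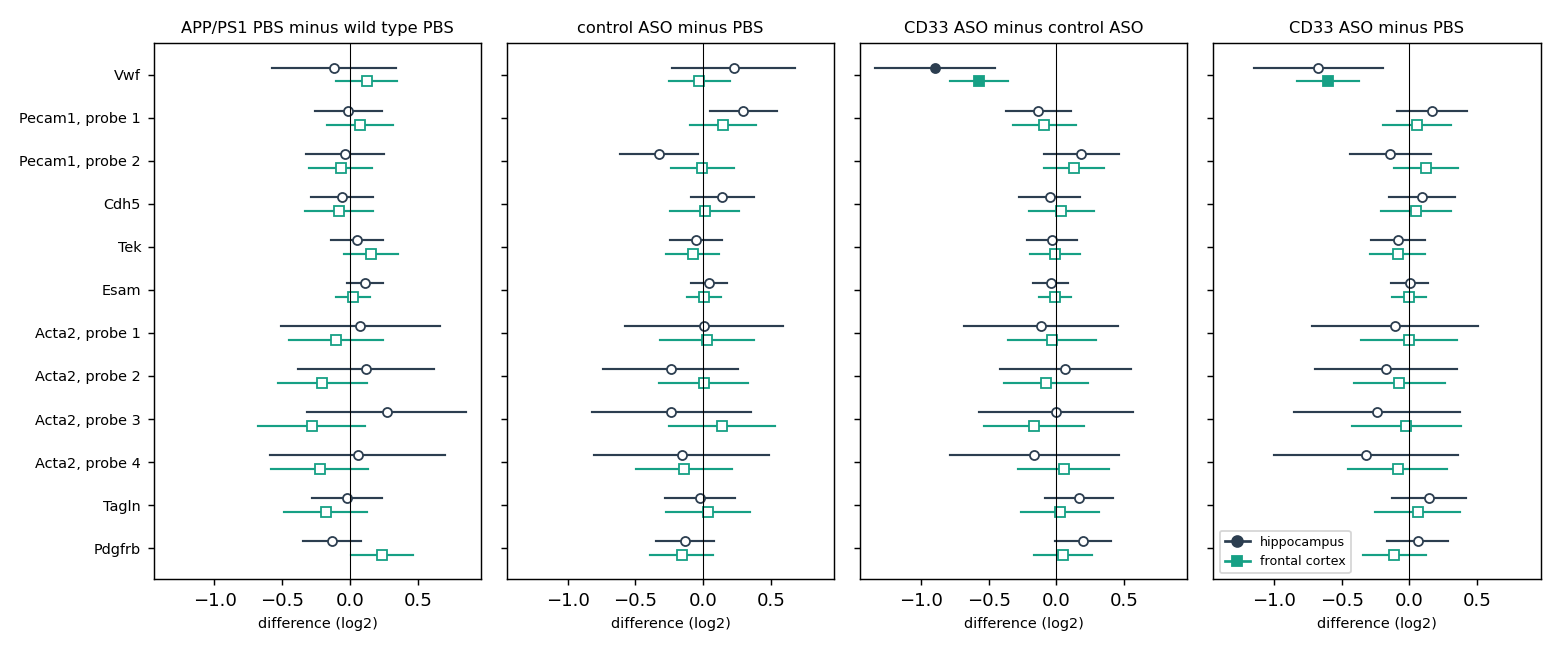
Log2 differences between groups for the 12 tested probes, with 95% confidence intervals from limma, in hippocampus (circles) and frontal cortex (squares); filled symbols have an adjusted p under 0.05. The only filled symbols are Vwf for CD33 ASO minus control ASO in both tissues and for CD33 ASO minus PBS in the cortex.

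Esam, an adhesion molecule at endothelial tight junctions and on platelets, was the most tightly measured of the tested members, with a within-group SD of 0.14 in the hippocampus and 0.13 in the cortex. Hippocampal Esam ran from 9.35 to 9.90 with CD33 ASO (median 9.54) and from 9.50 to 9.77 with control ASO (median 9.62). The groups overlapped fully, and the difference was -0.04 (interval -0.17 to 0.09, limma adjusted p = 0.781). In the cortex Esam ran from 9.53 to 9.99 with CD33 ASO and from 9.59 to 9.87 with control ASO. The cortical difference was -0.01 (interval -0.12 to 0.11, adjusted p = 0.98).

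Tek encodes Tie2, the endothelial receptor for angiopoietins. Hippocampal Tek ran from 7.19 to 7.89 with CD33 ASO and from 7.14 to 7.77 with control ASO, with a median of 7.54 in each. The difference was -0.03 (interval -0.21 to 0.15, limma adjusted p = 0.909). In the cortex its ranges of 7.52 to 8.11 and 7.59 to 8.03 overlapped, with a difference of -0.01 (interval -0.19 to 0.18, adjusted p = 0.989). These were the 2 endothelial members besides Vwf that were detected on every array.

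Pecam1, or CD31, joins endothelial cells at their borders and is also made by platelets and leukocytes. Its 2 probes did not follow each other across arrays, with within-group correlations of -0.10 in the hippocampus and -0.05 in the cortex, so each is given separately. The first probe, detected on 37 hippocampal and all 40 cortical arrays, had a hippocampal range of 5.08 to 5.91 with CD33 ASO and 5.46 to 6.26 with control ASO, and a difference of -0.13 (interval -0.37 to 0.11, limma adjusted p = 0.582). The second, detected on 23 and 25 arrays, gave 0.18 (interval -0.09 to 0.46, adjusted p = 0.498).

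The Pecam1 probes lay furthest apart for control ASO against PBS in the hippocampus, at 0.30 (interval 0.05 to 0.54, adjusted p = 0.101) and -0.32 (interval -0.61 to -0.04, adjusted p = 0.127). Those were the only 2 of the 11 probes with an unadjusted p under 0.05 in that comparison, and their directions were opposite. Cdh5, or VE-cadherin, the main protein of endothelial adherens junctions, was detected on 14 hippocampal and 11 cortical arrays and so was measured near the detection limit. Its hippocampal means were 4.96 ± 0.29 (SD, n = 9) with CD33 ASO and 5.0 ± 0.21 (SD, n = 11) with control ASO, a difference of -0.05 (interval -0.27 to 0.18, limma adjusted p = 0.867). Kdr signals ran from 4.37 to 5.08 in the hippocampus, and its levels can be read only as not detected.

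Acta2 encodes the smooth muscle actin of arteries and arterioles, and 4 probes measured it on every array. The probes followed each other, with within-group correlations between 0.89 and 0.99 in the hippocampus and between 0.66 and 0.94 in the cortex. On the first probe, hippocampal Acta2 ran from 9.43 to 11.89 with CD33 ASO (median 10.45) and from 10.07 to 11.60 with control ASO (median 11.02). With PBS it ran from 10.09 to 11.99 in APP/PS1 mice and from 9.90 to 11.89 in wild-type mice. All 4 groups overlapped, with CD33 ASO reaching lowest, and the difference between the ASOs was -0.11 (interval -0.68 to 0.46, limma adjusted p = 0.879). The other 3 probes gave differences between -0.16 and 0.07.

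**Figure D3:**
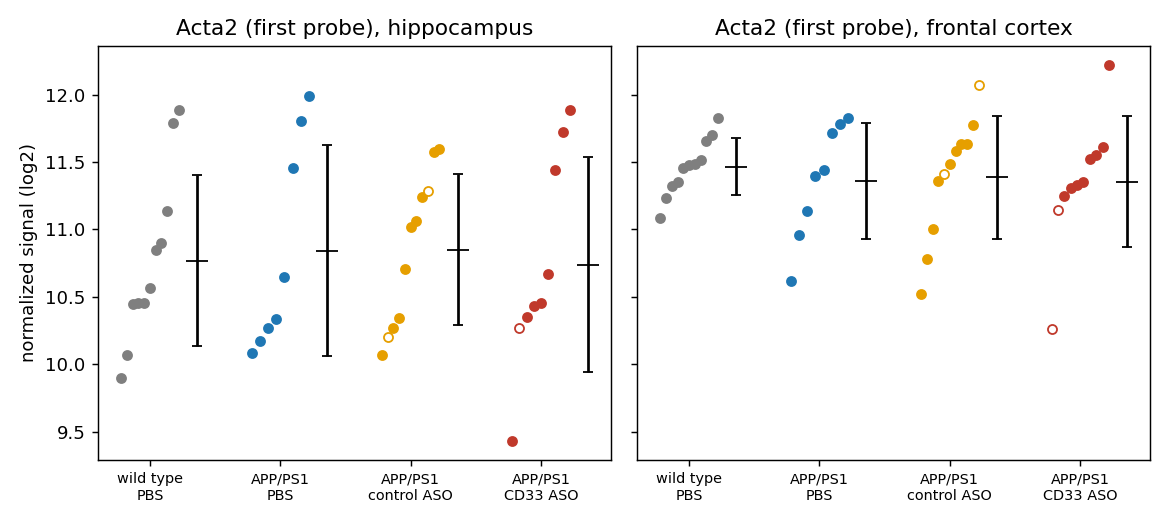
Normalized log2 signal of Acta2 (first probe) on each array, by group, in hippocampus (left) and frontal cortex (right); black bars give the mean and SD, and open circles mark the animals with low Thy1. The hippocampal arrays spread from 9.43 to 11.99 and the groups overlap in both tissues.

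In the cortex the same Acta2 probe ran from 10.26 to 12.22 with CD33 ASO and from 10.52 to 12.07 with control ASO, with a difference of -0.03 (interval -0.36 to 0.29, limma adjusted p = 0.976). Tagln, or SM22, a protein bound to smooth muscle actin, was detected on 15 hippocampal and 25 cortical arrays. Its differences between the ASOs were 0.17 (interval -0.08 to 0.42, adjusted p = 0.498) in the hippocampus and 0.03 (interval -0.26 to 0.32, adjusted p = 0.976) in the cortex. Pdgfrb, the receptor by which pericytes answer platelet-derived growth factor B from endothelium, had hippocampal means of 5.90 ± 0.37 (SD, n = 9) with CD33 ASO and 5.71 ± 0.10 (SD, n = 11) with control ASO. Its difference of 0.20 (interval -0.01 to 0.40, adjusted p = 0.293) was opposite in sign to that of Vwf. Without CD33 ASO replicate 7, on which Pdgfrb was not detected, it was 0.31 (adjusted p = 0.0196), and Pdgfrb was then called with Vwf.

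Acta2 is the member with the best known control sequence. It is shown because its probes moved with Vwf between hippocampal arrays, described further on. The window from RefSeq's promoter table (GRCm38.p6, chr19:34255324-34255623, minus strand, 300 bases written 5′ to 3′) has in capitals 2 CArG-like stretches, at bases 167 to 176 and 217 to 226, and the TATA run TATATAA at bases 259 to 265. CArG boxes bind serum response factor, which drives smooth muscle genes. A stretch was taken as CArG-like where CC and GG enclose 6 bases of which at least 5 are A or T, a rule that reads alike on both strands.

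Acta2: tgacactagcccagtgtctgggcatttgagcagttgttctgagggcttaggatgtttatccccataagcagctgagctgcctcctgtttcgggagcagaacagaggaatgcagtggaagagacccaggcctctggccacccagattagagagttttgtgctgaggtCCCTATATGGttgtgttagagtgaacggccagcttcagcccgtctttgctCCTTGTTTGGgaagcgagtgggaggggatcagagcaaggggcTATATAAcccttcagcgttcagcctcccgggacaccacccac

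These motifs were chosen with this window in view. A CArG-like stretch was found in 3280 of 32851 promoter windows of the same length (9.98%), and TATATAA, searched on both strands, in 1065 (3.24%). Of the 4 members with a window in the table, Acta2, Kdr and Tek held a CArG-like stretch and Cldn5 did not, and Acta2 alone held TATATAA. A match is a description of the letters, and binding was not measured here.

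Whether the other members changed by as much as Vwf was tested by fitting each probe's log2 signal minus that of Vwf on the same array. A smaller change in the direction of Vwf also counts as a difference here, so the test cannot exclude one. Cdh5, Tagln and the second Pecam1 probe lay near the detection limit, where a fall as large as that of Vwf could hardly be seen. For CD33 ASO against control ASO, all 11 other member probes differed from Vwf in both tissues by limma, by values between 0.74 and 1.09 in the hippocampus (adjusted p 0.000437 to 0.00561) and between 0.41 and 0.70 in the cortex (adjusted p 3.93e-05 to 0.0391). The same was true of 99.2% of all probes in the hippocampus and 97.1% in the cortex, so the members behaved here like nearly every other probe. The count follows from the fall of Vwf itself and says nothing particular to vessel genes. With nearly all probes called, the adjustment hardly raised the p-values, so they cannot be set beside the adjusted p of Vwf itself. For Esam, the difference from Vwf was 0.86 (interval 0.36 to 1.35) in the hippocampus and 0.56 (interval 0.33 to 0.79) in the cortex. For Tek it was 0.87 (interval 0.35 to 1.38) and 0.56 (interval 0.30 to 0.83). Every probe carries the same Vwf values in this test, and limma treated the pooled spread as known. Its intervals are therefore narrower, and its p-values smaller, than the number of arrays allows.

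With slide as a block, 11 of 11 probes in the hippocampus and 10 of 11 in the cortex still differed from Vwf, and 1 cortical Acta2 probe did not (0.37, adjusted p = 0.0705). Without the animals with low Thy1, 11 of 11 differed in each tissue. For CD33 ASO against PBS, 11 of 11 differed from Vwf in the cortex, where 95.9% of all probes did, and 6 of 11 in the hippocampus, where 70.9% did. In the hippocampus that count fell to 3 with slide as a block and to 0 without the animals with low Thy1. These tests all share the values of the single Vwf probe, so an error in Vwf moves all of them together and the counts are not separate results. For CD33 ASO against control ASO, hippocampal Vwf itself was not called with slide as a block or without the animals with low Thy1.

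Beyond the 10 members, lists of other vessel genes gave a few calls in the hippocampus and none in the cortex for CD33 ASO against control ASO. Over all genes, 3.82% were called in the hippocampus in either direction and 0.277% in the cortex. Of 31 tested endothelial genes, 0 rose and 1 fell in the hippocampus: Flt1, a receptor for vascular endothelial growth factor, at -0.26 (limma adjusted p = 0.0199). Of 17 mural genes, 0 rose and 2 fell: Notch3, the Notch receptor of vascular smooth muscle, at -0.42 (adjusted p = 0.0229), and Rgs5, a pericyte regulator of G protein signaling, at -0.45 (adjusted p = 0.0348). The list medians were -0.06 for endothelial and -0.16 for mural genes, beside -0.01 over all genes.

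These calls were not stable. With slide as a block Flt1 was at -0.22 (adjusted p = 0.206), Notch3 at -0.30 (adjusted p = 0.275) and Rgs5 at -0.36 (adjusted p = 0.311). Without the animals with low Thy1 they stood at adjusted p = 0.0501, 0.0938 and 0.122. In the cortex, where 0.277% of all genes were called, 0 of 31 endothelial and 0 of 18 mural genes were called. Their medians were -0.06 and -0.06, beside 0.01 over all genes. Among the most abundant genes of the endothelial list, Slc2a1 was at -0.08 there and Egfl7, a protein secreted by endothelium, at -0.01. In the mural list, Rgs4 was at -0.13 and Tpm1 at -0.04. Listed genes can also be made by other cells of the tissue, so these values need not come from the vessel wall.

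The genes closest to the biology of von Willebrand factor were followed as a list of their own. Of 10 tested genes of its platelet receptors and its cleavage, 1 rose in the hippocampus with CD33 ASO against control ASO: Gp5, part of the platelet receptor for von Willebrand factor, at 0.51 (limma adjusted p = 0.00779). Gp5 was also lower with control ASO than with PBS, at -0.55 (adjusted p = 0.00258), in a comparison that shares the control ASO arrays. With slide as a block neither difference passed (adjusted p = 0.168 and 0.237), and without the animals with low Thy1 the first did not (adjusted p = 0.0641). The first lay between 0.30 and 0.78 over the processing alternatives. Itga2b, an integrin chain of platelets, rose against PBS in the hippocampus with both oligonucleotides (0.38 and 0.38), but with slide as a block the control ASO call was lost (adjusted p = 0.123). The size of these 2 differences depended on the processing, with values between 0.21 and 0.66. In the cortex 0 of 11 were called between the oligonucleotides, where 0.277% of all genes were called. F2r, a thrombin receptor, was at 0.19 there and Gp1bb, another part of the platelet receptor, at 0.03. Adamts13, the protease that cleaves von Willebrand factor, was at 0.07 in the hippocampus and 0.12 in the cortex, and was not called.

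Of 8 tested genes of Weibel-Palade bodies and their release, 0 were called for CD33 ASO against control ASO in either tissue. Angpt2, a Tie2 ligand stored in those bodies beside von Willebrand factor, was at 0.07 (interval -0.24 to 0.38) in the hippocampus and 0.13 (interval -0.08 to 0.34) in the cortex. Edn1, endothelin, was at -0.05 and 0.06, Cd63 at 0.20 and 0.02, and Igfbp7 at 0.39 (adjusted p = 0.213) and -0.05. In the cortex of APP/PS1 against wild-type mice, where 4.46% of all genes were called in either direction, 2 of the 8 rose: Cd63, at 0.52 (limma adjusted p = 7.23e-06), and Rab27a, at 0.52 (adjusted p = 0.00153). Both are also made by cells other than endothelium, and both calls held with slide as a block.

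Ligands of the angiopoietin, VEGF and PDGF pathways did not pass for CD33 ASO against control ASO. Angpt1, the activating ligand of Tie2, was at 0.16 (interval -0.04 to 0.35) in the hippocampus, and Pdgfb, the ligand of Pdgfrb, at -0.11 (interval -0.27 to 0.04). In the list of 17 that holds these ligands and their receptors, the 1 call was Flt1 again. Of 9 basement membrane, 11 junction and 6 actin or serum response factor genes, 0 were called in the hippocampus, among them Agrn at 0.00, Sparc at 0.09, Gja1 at 0.01, Ctnnb1 at 0.08 and Tpm1 at 0.11. In the cortex 0 of 18 ligand and receptor, 0 of 9 basement membrane, 0 of 11 junction and 0 of 7 actin genes were called, among them Vegfb at 0.04, Pdgfa at 0.05, Agrn at 0.08, Sparc at 0.01, Gja1 at 0.06 and Ctnnb1 at 0.03. Gja1 also stands in the astrocyte list, and the genes of these lists can be made by cells outside the vessel wall.

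Against PBS, vessel genes other than the members changed with both oligonucleotides, while Vwf was called against PBS for CD33 ASO in the cortex. Col4a2, a chain of basement membrane collagen, rose in the hippocampus with control ASO (0.31, limma adjusted p = 0.00127) and with CD33 ASO (0.50, adjusted p = 1.24e-06), and in the cortex with CD33 ASO (0.37, adjusted p = 0.0112). Col4a1 was at 0.28 and 0.38 in the hippocampus with control ASO and CD33 ASO, and Sparc at 0.28 and 0.37, each called by limma. The control ASO calls of Col4a1 (adjusted p = 0.423) and Sparc (adjusted p = 0.227) were lost with slide as a block, as was that of Col4a1 without the animals with low Thy1 (adjusted p = 0.0627). Mcam, or CD146, an adhesion molecule of endothelium and pericytes, fell in the hippocampus with control ASO (-0.46, adjusted p = 0.0014) and CD33 ASO (-0.55, adjusted p = 0.000195), and in the cortex with both (-0.37 and -0.40), of which the control ASO call was lost with slide as a block (adjusted p = 0.0774). These comparisons share the PBS arrays.

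Among endothelial genes, 3 of 31 rose and 3 fell in the hippocampus with control ASO against PBS, where 11.9% of all genes were called in either direction. Mfsd2a, a lipid transporter of barrier endothelium, rose by 0.55 (limma adjusted p = 0.0016), while Cd34 was at -0.38 (adjusted p = 0.042), Cav1 at -0.36 (adjusted p = 0.0483) and Sox18 at -0.29 (adjusted p = 0.0387). Slc2a1, the glucose transporter of the barrier, was at 0.28 and Robo4 at 0.23, both called. In the same comparison the growth factors Vegfa and Pdgfa fell (-0.40 and -0.24) and Notch4, an endothelial Notch receptor, rose (0.29). With slide as a block Mfsd2a was the 1 of these 9 genes still called (0.48, adjusted p = 0.0446). Without the animals with low Thy1, Cd34 (adjusted p = 0.1), Slc2a1 (0.0612), Robo4 (0.0587), Sox18 (0.0722), Notch4 (0.0593) and Pdgfa (0.0539) were not called. In the cortex Mfsd2a (0.42) and Ly6c1 (0.39, not called with slide as a block) rose with control ASO, and in the hippocampus Tfrc, the transferrin receptor, fell with CD33 ASO against PBS (-0.28, adjusted p = 0.0111). For genotype, 0 of 31 endothelial genes were called in either tissue, where 1.1% of all genes were called in the hippocampus and 4.46% in the cortex.

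Some markers of other cells moved beside Vwf in the comparison of the oligonucleotides, in which 3.82% of all genes were called in the hippocampus and 0.277% in the cortex. Of 7 oligodendrocyte genes, 3 fell in the hippocampus (Mog at -0.76, Cldn11 at -0.27 and Cnp at -0.25) and 1 in the cortex (Mog at -0.64). The summed level of the 7 genes was between 30929 and 38947 with CD33 ASO and between 37106 and 44083 with control ASO in the hippocampus. Mrc1, a marker of macrophages at vessels and meninges, fell in both tissues (-0.62 and -0.53), as 1 of 5 and 1 of 6 such genes. The calls of Mrc1 in both tissues (adjusted p = 0.242 and 0.0724) and of hippocampal Cldn11 (adjusted p = 0.159) and Cnp (adjusted p = 0.101) were lost with slide as a block, while both Mog calls held. Without the animals with low Thy1, cortical Mrc1 (adjusted p = 0.0968) and hippocampal Cldn11 (adjusted p = 0.0591) were not called. Of 11 microglial genes, 1 rose in the hippocampus (Tyrobp at 0.58) and 0 were called in the cortex, and of 9 astrocyte and 6 neuronal genes 0 were called in either tissue. Of 6 blood genes, 0 were called in either tissue, and their summed hippocampal level was between 2303 and 16611 with CD33 ASO and between 4570 and 13864 with control ASO. Their part in the Vwf difference was not tested.

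Fibroblast markers, which mark the meninges and the walls of larger vessels, spread widely between hippocampal arrays, with a summed level of 13 genes between 5863 and 17337 with CD33 ASO and between 5924 and 18444 with control ASO. Of the 13, 1 rose, Islr, a secreted fibroblast protein (0.53, limma adjusted p = 0.0321, and 0.0823 with slide as a block). Without the animals with low Thy1 Islr was not called (adjusted p = 0.0768), and its size ran from 0.28 to 2.16 over the processing alternatives. The median of the fibroblast list was 0.20. With the mean level of these markers as a covariate, a fit chosen after the data were seen, the Vwf difference was -1.0 (adjusted p = 0.00115) in the hippocampus and -0.52 (adjusted p = 0.00554) in the cortex. The summed level of 6 choroid plexus genes was between 3074 and 33107 with CD33 ASO and between 2767 and 32758 with control ASO in the hippocampus. With their mean as a covariate the Vwf differences were -0.87 (adjusted p = 0.0126) and -0.56 (adjusted p = 0.00298).

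Members were also compared between the tissues. In no comparison did the difference between groups differ between cortex and hippocampus for any of the 12 probes (0 called by limma with animal as a random block). Of all 14214 probes, 0.415% were called for genotype, 0.253% for control ASO against PBS and 0.0563% for CD33 ASO against PBS. For Vwf and CD33 ASO against control ASO, cortex minus hippocampus was 0.32 (interval -0.14 to 0.79, adjusted p = 0.674), where 0.00704% of all probes were called, so a difference between tissues of that size was not detectable with these arrays. In wild-type mice, 6 of 12 probes were higher in the cortex, where 38% of all probes were called in either direction. The 4 Acta2 probes were higher by 0.70, 0.70, 0.85 and 0.81 (adjusted p 0.00132 to 0.00706), Esam by 0.29 (adjusted p = 9.74e-06) and Tagln by 0.36 (adjusted p = 0.0173). Vwf was at 0.24 (interval -0.07 to 0.56, adjusted p = 0.239). The slides of the 2 tissues were separate, so tissue and slide cannot be told apart in these levels.

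Within groups, the members differed widely in how much they varied between animals. In the hippocampus the SD around the group means was 0.53 for Vwf, larger than that of 98.8% of all probes, and between 0.58 and 0.76 for the 4 Acta2 probes, larger than that of 99.1% to 99.5%. For Tek it was 0.20 and for Esam 0.14, beside a median of 0.21 over all probes. In the cortex Vwf had an SD of 0.26, larger than that of 67.7% of probes, while Acta2 stayed between 0.37 and 0.46.

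In the hippocampus the animals with more Vwf than their group also had more Acta2. Over 39 arrays, the deviations of Vwf from its group means followed those of the first Acta2 probe with Pearson's r = 0.77 (permutation adjusted p = 0.00011) and Spearman's rho = 0.80 (permutation adjusted p = 7.33e-05), among 22 relations computed. The other Acta2 probes had r of 0.75, 0.67 and 0.66. Without the 2 arrays farthest from the Vwf median, r was 0.73 for the first probe, and with slide removed as well as group it was 0.74. Vwf also followed Esam (r = 0.68, permutation adjusted p = 0.00022; rho = 0.56), the first Pecam1 probe (r = 0.46, permutation adjusted p = 0.0154; rho = 0.50) and Tek (r = 0.43, permutation adjusted p = 0.0166; rho = 0.40). Cdh5 (r = 0.32), Tagln (r = 0.24), Pdgfrb (r = 0.12) and the second Pecam1 probe (r = 0.07) did not pass. Genes outside the members, listed further on, followed hippocampal Vwf with r up to 0.79. The share of all genes that follow Vwf as closely was not counted in either tissue, so these relations are not shown to be particular to the members.

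In the cortex Esam again followed Vwf over 40 arrays (r = 0.61, permutation adjusted p = 0.000477; rho = 0.54), with r = 0.57 once slide was removed. Pdgfrb did so as well (r = 0.48, permutation adjusted p = 0.0109; rho = 0.45), while Tek passed by r (0.40, permutation adjusted p = 0.0454) and not by rho (0.29, permutation adjusted p = 0.163). Acta2 did not, with r between -0.17 and 0.24 over its 4 probes. The difference in r between the tissues was not tested. Esam was thus correlated with Vwf in both tissues within groups, while its group means did not move with those of Vwf between the oligonucleotides.

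**Figure D4:**
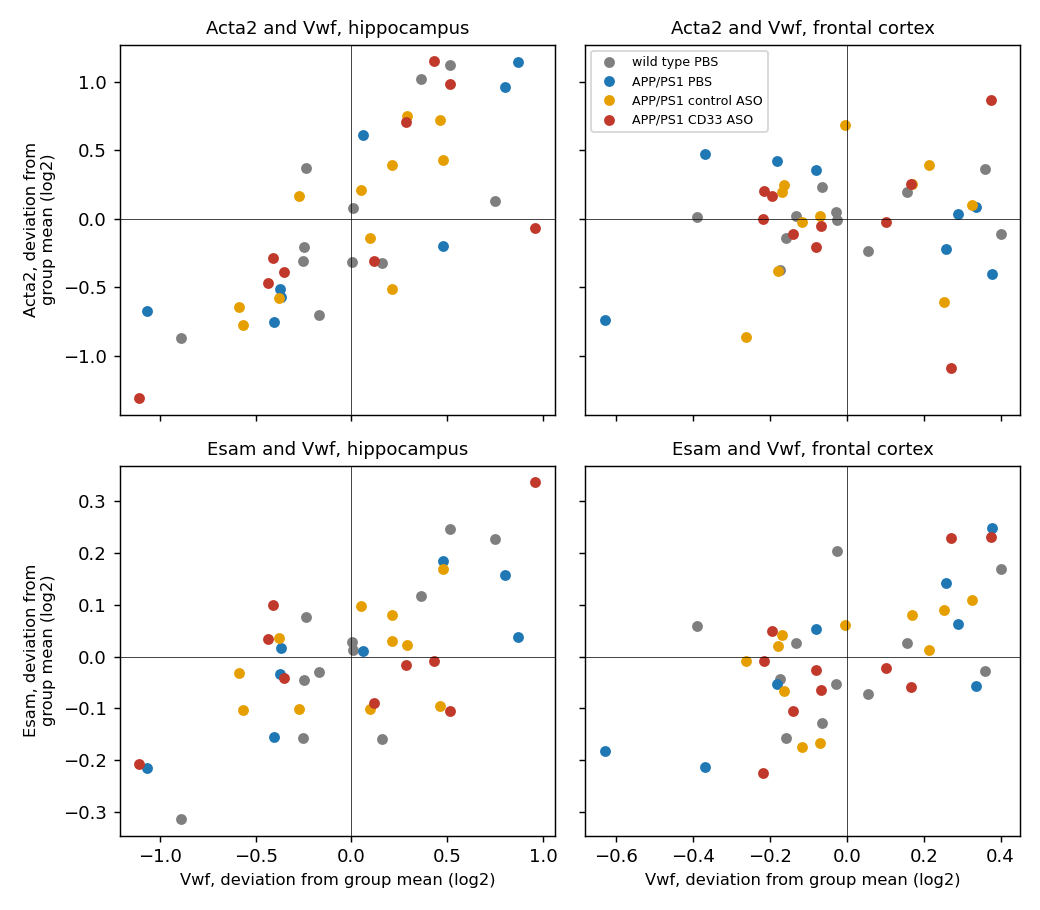
Deviation of each array from its group mean (log2) for Vwf (horizontal axis) against Acta2 (first probe, top) and Esam (bottom), in hippocampus (left) and frontal cortex (right), coloured by group. Acta2 rises with Vwf in the hippocampus (r = 0.77) and not in the cortex (r = 0.12), and Esam rises with Vwf in both (r = 0.68 and 0.61).

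The level of Vwf also went together between the tissues of an animal. Over the 39 animals with both tissues, its deviations from the group means in hippocampus and cortex had r = 0.50 (permutation p = 0.0039, adjusted 0.0195 over 20 relations) and rho = 0.42 (permutation adjusted p = 0.0596), and r was 0.39 without the 2 animals farthest from the median. Pdgfrb had rho = 0.44 (permutation adjusted p = 0.0373) and r = 0.35 (permutation adjusted p = 0.158). Acta2 had r between 0.05 and 0.08, so an animal high in hippocampal Acta2 was not detectably high in cortical Acta2. Fibroblast markers followed Acta2 within groups in both tissues (r = 0.61 and 0.77), and Vwf in the hippocampus (r = 0.51, permutation adjusted p = 0.0078) but not past the threshold in the cortex (r = 0.30, permutation adjusted p = 0.264).

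Genes with the within-group pattern most like that of Vwf were ranked by Pearson's r over all tested genes, as a description. In the hippocampus, among 10269 genes on 39 arrays, the 5 highest were Tgm2 (r = 0.79), Slc7a11 (0.79), Col9a2 (0.78), Cd248 (0.78) and Lama1 (0.77). In the cortex, among 10094 genes on 40 arrays, they were Acot9 (0.66), Uaca (0.64), Plekhs1 (0.63), Twf2 (0.62) and C2 (0.62), and the lists share 0 genes. For Acta2 the nearest were the smooth muscle genes Tpm2, encoding a tropomyosin (0.94 in the hippocampus, 0.89 in the cortex), and Myh11, smooth muscle myosin (0.94 and 0.88), followed by Aoc3 in the hippocampus (0.86) and Actg2 in the cortex (0.83). With slide removed as well as group, r of the genes listed for Vwf lay between 0.75 and 0.80 in the hippocampus. In the cortex it lay between 0.57 and 0.65. The part of a shared dissection or scaling step in these values was not tested.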

How the data were processed

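Total RNA was measured on Illumina MouseRef-8 v2 arrays. The deposited signals are intensity values with a detection p-value for each of 79 arrays, per the file headers. The authors' deposited log2 table, with 18960 probes, was used as an alternative. BeadStudio, GenomeStudio and Partek were used, per the submitters' processing notes. How the intensities were made beyond that is not given in the sources used here, and at least 21.8% of the values of each array lie below 0, so background had been subtracted.

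In R 4.3.3 with limma 3.58.1, neqc (offset 16) corrected background with the help of the detection p-values, then brought all arrays to shared quantiles on the log2 scale. Probes with a detection p under 0.05 on at least 8 arrays of a tissue were tested (14923 and 14581). Symbols came from the platform annotation, which gave 1 symbol to 17800 probes and several to 0. Within each tissue 1 model held the 4 groups (lmFit, eBayes with trend). A probe was called where its p, adjusted over all tested probes by Benjamini-Hochberg, was under 0.05, and intervals are 95%. For a gene of a list, the probe with the highest mean was used. Vwf was also tested by permutation, exactly where a group had fewer than 10 arrays, with scipy 1.17.1 in Python 3.11.15. Correlations use deviations from group means, permuted within groups 100000 times. Steps were tested on simulated data, and figures were drawn with matplotlib 3.10.9. The number of arrays limits the precision.

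The member genes and all gene lists were chosen with earlier results of these data known. Named were all members, the called genes of the vessel lists (at most the 4 largest per list and comparison) and, for the oligonucleotide comparison only, the 2 most abundant genes of a list with no call. Adamts13, Angpt1, Angpt2, Edn1 and Pdgfb were added after their values were seen. Also named were the genes most correlated with Vwf and Acta2, and check genes (Cd33, Thy1, Cst7). Labels gave groups, slides and animals, with 0 columns of sample values unused. Replicate numbers pair no animals within a tissue, and p-values measure the spread between animals.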

Additional observations from a re-analysis of the deposited data

Results flagged for a closer look

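In 5 of 52 groups of member probes, 1 array lay far from its group (all values are log2 signals); chance marks about 1 group in 20 in this way. Pdgfrb was at 5.0 on hippocampal CD33 ASO replicate 7, where it was not detected, and the nearest of the other 8 arrays was at 5.81. Cdh5 was at 5.38 on hippocampal APP/PS1 PBS replicate 1, where it was detected, and the nearest other array was at 4.94. Pecam1 (first probe) was at 6.29 on cortical CD33 ASO replicate 7, above the next array at 5.81. Acta2, on 1 of its 4 probes, was at 6.59 on cortical CD33 ASO replicate 10, below the next array at 7.42, and that animal is one of those with low Thy1. Kdr was at 4.95 on cortical APP/PS1 PBS replicate 7, above the next at 4.71, with no detection on either. No Vwf array of these groups of 8 to 10 arrays stood apart in this way. Groups of 11 arrays were not tested.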

How the results depend on the processing

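For Vwf, CD33 ASO against control ASO and against PBS in the cortex kept its direction and its call under all alternatives run; leaving out 1 array at a time moved these differences between -0.61 and -0.54 and between -0.69 and -0.54. In the hippocampus, CD33 ASO against control ASO kept its direction and lay between -1.02 and -0.76 with 1 array left out, called in 20 of 20 runs. The call was lost, with 0 member genes called, with slide as a fixed block (-0.70, adjusted p = 0.22), slide as a random block (-0.79, adjusted p = 0.0653) and without the animals with low Thy1 (-0.85, adjusted p = 0.0526). Against PBS, hippocampal Vwf lay between -0.82 and -0.53 with 1 array left out, and it was called, making 1 of the members called in place of 0, with array weights (-0.76), without the animals collected on another day (-0.84), with choroid plexus markers as a covariate (-0.75, chosen after the data were seen), without CD33 ASO replicate 4 (-0.79) and without PBS replicate 3 (-0.82). Of the members, Pecam1 became 1 call for hippocampal control ASO against PBS with fibroblast markers as a covariate (0.36, adjusted p = 0.0474, first probe; chosen after the data were seen) and without PBS replicate 2 (-0.42, adjusted p = 0.0469, second probe), so the number called lay between 0 and 1. For hippocampal CD33 ASO against control ASO the number of members called lay between 1 and 2 with 1 array left out. Samples that share a replicate number were never the same animal, and their deviations had a median correlation of 0.055 in the hippocampus and 0.061 in the cortex, with a minimum of -0.31 and -0.17, so the numbers pair nothing; with the number as a replicate block the Vwf differences between the oligonucleotides were -0.88 (adjusted p = 0.0227) and -0.55 (adjusted p = 0.00647), and no member's call changed. No called difference of a member changed sign in any alternative. Calls of other list genes held less well: with slide as a block, 1 of 10 calls in the hippocampus and 1 of 2 in the cortex held for CD33 ASO against control ASO, and 5 of 26 held for hippocampal control ASO against PBS, against 20 of 21 for CD33 ASO against PBS. Probes near background (Cdh5, Tagln, the second Pecam1 probe) limit what could be seen there. Sizes of some list genes also moved with the processing. Cortical Cxcl10 for genotype ran from 0.96 to 6.58, and cortical Lcn2 for CD33 ASO against PBS from 1.0 to 3.78. The number of probes called, given here as a share of those tested, moved by more than 1.5 times in these cases. For hippocampal CD33 ASO against control ASO it was 3.53%, and 0.757% with slide as a fixed block, 1.28% with slide random, 1.48% without the animals with low Thy1, 1.76% with median centring and 1.82% with only the groups compared. For hippocampal control ASO against PBS it was 11.4%, and 0.811% and 2.83% with slide as a fixed and a random block, 17.4% with array weights and 6.86% with the choroid plexus covariate. Hippocampal CD33 ASO against PBS moved from 4.96% to 3.06% with median centring, and genotype from 0.952% to 1.45% with array weights. In the cortex, CD33 ASO against control ASO moved from 0.322% to 0.192% without the animals with low Thy1. With median centring and with only the groups compared, cortical CD33 ASO against PBS moved from 1.49% to 0.83% and 0.713%, and control ASO against PBS from 0.926% to 0.391% and 0.569%.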

Other observations

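Of 8 genes of endothelial activation, 0 were called between the oligonucleotides in the cortex, where 0.277% of all genes were called. Ackr1 was at 0.00 there and Vcam1, an adhesion molecule for leukocytes, at 0.15. In the hippocampus with control ASO against PBS, Ackr1 was at 0.22 (limma adjusted p = 0.0321) and Islr of the fibroblast list at -0.48 (adjusted p = 0.0352), but with a block for slide neither was called (adjusted p = 0.359 and 0.479). In the cortex Igf2 and Slc13a4 of that list were at -0.06 and -0.09 between the oligonucleotides. Cxcl10, an interferon-induced chemokine, rose in the cortex of APP/PS1 against wild-type mice (1.62, limma adjusted p = 0.00294) and in the hippocampus with CD33 ASO against PBS (0.93, adjusted p = 0.00141) and against control ASO (0.68, adjusted p = 0.0224). The last of these missed the threshold with slide as a block (adjusted p = 0.0542). Lcn2, an acute phase gene of astrocytes and endothelium, rose with CD33 ASO against PBS in the hippocampus (2.05, adjusted p = 0.0122) and the cortex (1.48, adjusted p = 0.0335), where it was not called without the animals with low Thy1 (adjusted p = 0.0829). F11r, the junction molecule JAM-A, and Sparc, a matricellular protein, rose in the cortex of APP/PS1 against wild-type mice (0.83, adjusted p = 4.75e-05, and 0.62, adjusted p = 2.5e-06), and both calls held with slide as a block.

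The summed level of 6 blood genes had a median of 10709 with control ASO and 8584 with CD33 ASO, against 16107 with PBS, among hippocampal APP/PS1 arrays, and 4 of the 6 fell with each oligonucleotide against PBS, where 11.9% of all genes were called with control ASO and 5.6% with CD33 ASO. Of the 4, 1 was still called by limma with control ASO once slide was a block (Hbb-bt, adjusted p = 0.0312), and 3 with CD33 ASO.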
